A study of Mus musculus with 6 samples.

Results

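Axon guidance ligands and receptors were followed through single cells of the mouse sciatic nerve 1 day (P1) and 60 days (P60) after birth, and each gene was placed in the cell types that carried it at either age. The members were all genes whose symbol names a numbered semaphorin, plexin, neuropilin, ephrin, Eph receptor, Slit, Robo, netrin or Unc5 receptor. These were 67 of the 41605 genes in the count tables, and the same 67 were found in all 6 libraries. They comprised 7 class 3 semaphorins, 13 other semaphorins, 11 plexins and neuropilins, 3 netrins, 4 Unc5 receptors, 3 Slits, 4 Robo receptors, 5 ephrin-A and 3 ephrin-B ligands, and 9 EphA and 5 EphB receptors. Each age was represented by 3 cell suspensions prepared independently from pooled nerves of male and female mice. Mice of both ages carried the same alleles on a C57bl/6J background: a Cre transgene whose activity marks the Schwann cell lineage, a Cre-dependent YFP reporter (Rosa26-loxP-stop-loxP-YFP Tg/+), and a DsRed transgene active in all cells (βActin-DsRed Tg/+). DsRed-positive cells were sorted and loaded on the 10x Chromium 3' v2 system, which counts transcripts by unique molecular identifiers (UMIs). At P1 a fraction of the cells positive for DsRed and YFP was left out, and the gate thus set how many Schwann cells each P1 library held. The nerves were not perfused, and the labels give no date or batch.

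Semaphorins are secreted or membrane-bound ligands that signal mainly through plexins, and the secreted class 3 semaphorins mostly reach their plexins through a neuropilin. Ephrins are membrane-anchored ligands of the Eph receptor tyrosine kinases, netrins act through Dcc, neogenin and Unc5 receptors, and Slits act through Robo receptors. These families steer growing axons, and the same ligands and receptors pattern blood vessels. In injured peripheral nerve, ephrin-B on fibroblasts is known to act on EphB2 of Schwann cells during regrowth.

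The libraries held 3495, 4197 and 4043 cells at P1 and 3435, 4586 and 4581 cells at P60 after filtering, with medians of 6077 to 6840 UMIs per cell at P1 and 3627 to 5561 at P60. The third P60 library stood apart from the other P60 libraries (Pearson r of 0.974 and 0.975 across genes, against 0.996 between those 2), and 16.2% of its cells had over 10% mitochondrial counts. Pairs of libraries shared 13 to 32 cell barcodes, at most 0.932% of the smaller library. Clusters were named by marker genes only, so each class name below stands for cells that are Schwann-like, fibroblast-like and so on. The defining markers ranked as labelled, for example Ncmap and Mbp in Schwann cells, Cldn5 and Pecam1 in endothelial cells, Rgs5 and Acta2 in mural cells (pericytes with vascular smooth muscle), and Cd52 or Pf4 (the latter not in the naming list) in immune cells. Fibroblasts were also split into endoneurial (Apod, Angptl7), epineurial (Pi16, Krtdap) and perineurial (Sfrp5, Msln) cells. Of the genes in brackets, only Pi16 and Msln are in the lists that named the clusters. The study regards its own fibroblast subtype names at P1 as tentative, since their markers come mainly from adult animals. These subtypes numbered 1331, 1272 and 883 cells at P1 and 860, 4537 and 2455 at P60, and the other P1 fibroblasts took no subtype name. The part of this shift in the changes over all fibroblasts was not tested. Schwann cells numbered 3522 at P1 and 419 at P60 (89, 127 and 203 per library), fibroblasts 5346 and 7852, endothelial cells 724 and 1687, mural cells 601 and 866, and immune cells 1049 and 1388. Outside these classes stood 493 unnamed cells at P1 (4.2%) and 0 at P60. Also outside were 117 P60 cells with endothelial and lymphatic markers (0.928%) and 273 with endothelial and mural markers (2.17%). At P1, 0 cells were set apart in this way, and the part of this in the endothelial age changes was not tested. UMIs were summed per library and class and are given as CPM, which scales each sum to 1e+06 counts. The 3' protocol counts transcript ends, and levels are compared between cells and ages but not between genes.

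The members with clear expression mostly kept the same leading cell class from P1 to P60, with endothelial cells leading for 13 members at P1 and 14 at P60, Schwann cells for 8 and 9, fibroblasts for 7 and 7, mural cells for 4 and 6 and immune cells for 2 and 3. Of the 67 members, 43 reached 20 CPM in some class, 17 peaked between 1 and 20 CPM and 7 stayed under 1 CPM in the 5 classes. Among the 30 members at 20 CPM or more at both ages, 28 had the same leading class at P1 and P60. The 2 exceptions were Epha4, which led in endothelial cells at P60 and by its mean in fibroblasts at P1, when the libraries of both classes overlapped, and Plxnd1, which led in endothelial cells at P1 and by its mean in immune cells at P60, when the libraries of the first and second class overlapped. Leading classes were not counted over all genes, so neither the counts per class nor the 28 of 30 set the members apart from other genes. Class contrasts were tested by edgeR's quasi-likelihood method with library as a block (two-sided, Benjamini-Hochberg over all genes). At P1, 51 of 51 members tested were higher in at least 1 class, against 93.6% of all genes, and at P60 48 of 48 were, against 83.4%. Counted as pairs of member and class, 92 of 255 pairs (36.1%) were higher at P1 and 78 of 240 (32.5%) at P60, where 30.7% and 24.9% of all gene and class pairs were. Schwann cells were higher for 23 members at P1 and 20 at P60 (33% and 17% of all genes), and fibroblasts for 29 and 21 (35.6% and 29.8%). Endothelial cells were higher for 17 and 19 members (30.5% and 27.6% of all genes), mural cells for 15 and 11 (20.2% and 21.2%) and immune cells for 8 and 7 (34.2% and 29.1%). The members had been left out of the genes used for clustering.

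**Figure D1:**
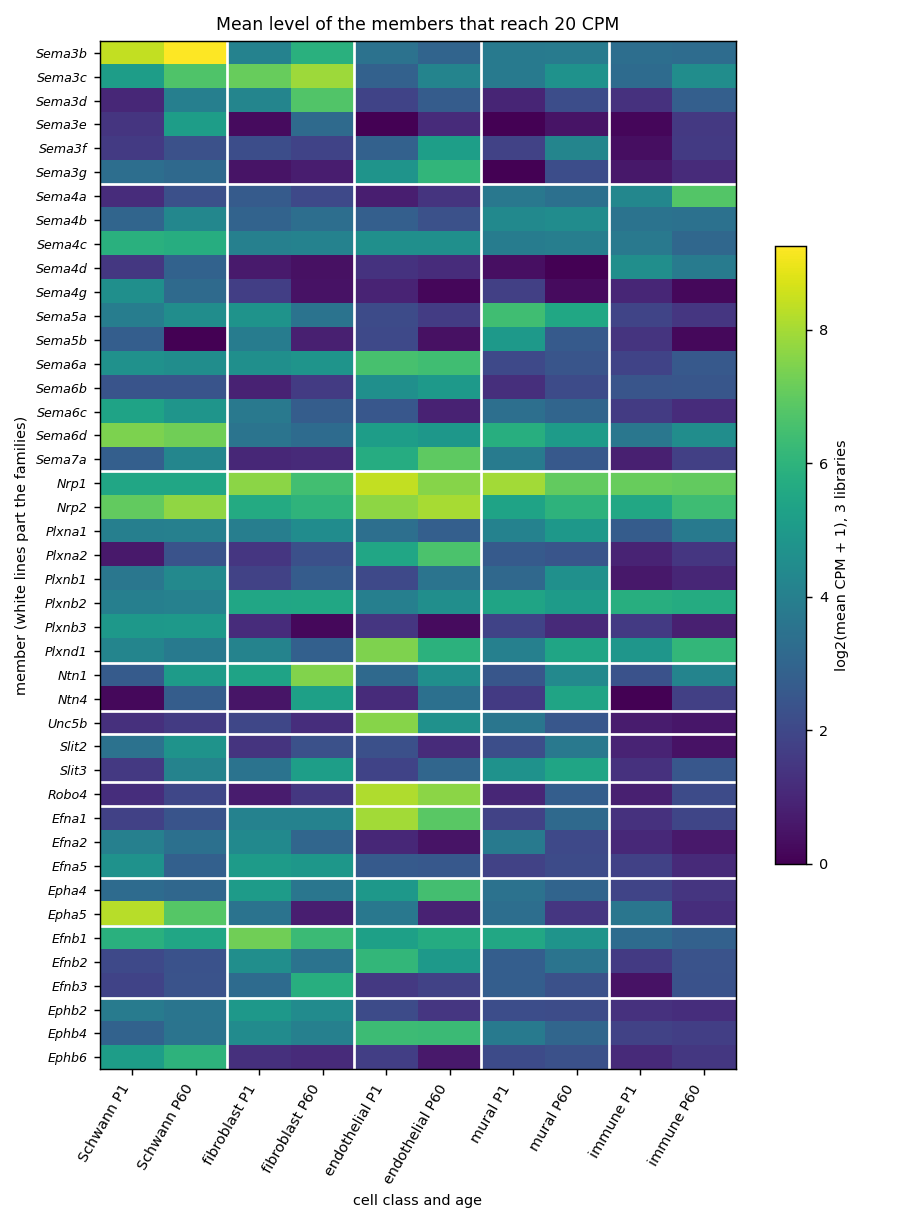
Mean level of the 43 members that reach 20 CPM in a class, as log2(mean CPM + 1) over 3 libraries, with members in rows by family and the 5 cell classes at P1 and P60 in columns. Bright cells in single column pairs show members held mainly by 1 class, such as Robo4 in endothelial cells and Epha5 in Schwann cells, while Nrp1 and Nrp2 are above 20 CPM in all 5 classes at both ages.

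RNA that leaks from abundant cells can add low counts to other classes, and its size was read from the classes' own markers. The 6 fibroblast markers stood in Schwann cells at a median of 16.5% of their fibroblast level at P1 and 31.8% at P60, whereas endothelial, mural and immune cells received 6.77% to 9.32% at either age. A member was taken to be above this level where its share of the leading class exceeded the median share of that class's markers. With this condition and 20 CPM added, 50 of the pairs at P1 (34 members) and 53 at P60 (39 members) remained. The Schwann cells of P60 were few and shallow, with 325994, 424156 and 486583 UMIs per library, and their median fell from 5726 UMIs per cell at P1 to 2332 at P60.

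Between P1 and P60 the members changed in both directions in each class, though with only 1 fall in immune cells. The split of rises and falls moved with single libraries in Schwann and endothelial cells. By edgeR on 3 against 3 libraries, fibroblasts had the most calls, 41 of 56 members tested (19 higher and 22 lower at P60), where 59.9% of all genes were called (31.1% higher and 28.8% lower). In endothelial cells 21 of 30 were called, 13 higher and 8 lower (all genes 40.3%, with 21% and 19.3%), and in Schwann cells 15 of 41, 11 higher and 4 lower (all genes 40.5%, with 21.5% and 19%). In mural cells 11 of 22 were called, 6 higher and 5 lower (all genes 33.2%, with 17.7% and 15.5%), and in immune cells 10 of 19, 9 higher and 1 lower (all genes 37.5%, with 20.3% and 17.2%). Among the fibroblast subtypes, 26 of 37 members were called in endoneurial cells (12 higher, 14 lower; all genes 46%, with 23.5% and 22.4%), 27 of 39 in epineurial cells (10 and 17; all genes 43.3%, with 22.7% and 20.6%) and 26 of 42 in perineurial cells (12 and 14; all genes 54.4%, with 27.9% and 26.5%). Libraries of the 2 ages did not overlap for 68.6% of all genes tested in fibroblasts, 52.3% in Schwann cells, 47.4% in mural, 53% in endothelial, 52.1% in immune, 56.2% in endoneurial, 56.4% in epineurial and 63% in perineurial cells, so that a lack of overlap was common here. The share of members called was thus 36.6% in Schwann cells, near that of all genes, and 70% in endothelial cells. Without the third P60 library 13 members were called in Schwann cells, 11 of them among the 15, and the calls of Nrp2, Sema4b, Sema7a and Slit2 were lost. The split was then 7 higher and 6 lower. Without the first or the third P1 library the endothelial split was 10 higher and 10 lower. With cells that carried UMIs of other classes' markers left out, 6 of 22 members were called in Schwann cells, 5 of them among the 15. In immune cells 7 members were then called higher and 0 lower at P60. The 1 fall there, that of Epha5, which led in Schwann cells, was no longer called. In this setting a cell was left out where its share of another class's markers exceeded a fixed fraction of that class's own median share. The cells kept could thus still hold some such UMIs. The median log2 change of the members tested was 0.04 in Schwann cells, -0.08 in fibroblasts, 0.11 in endothelial cells, 0.22 in mural cells and 0.21 in immune cells, beside medians of 0.01 to 0.03 over all genes. The age change differed between the 5 classes for 36 of 57 members by the class-by-age term, where it did for 59.6% of all genes. Cells of a library share 1 suspension, so the p-values measure the spread between these libraries. The sort differed between P1 and P60 and cannot be told apart from age.

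**Figure D2:**
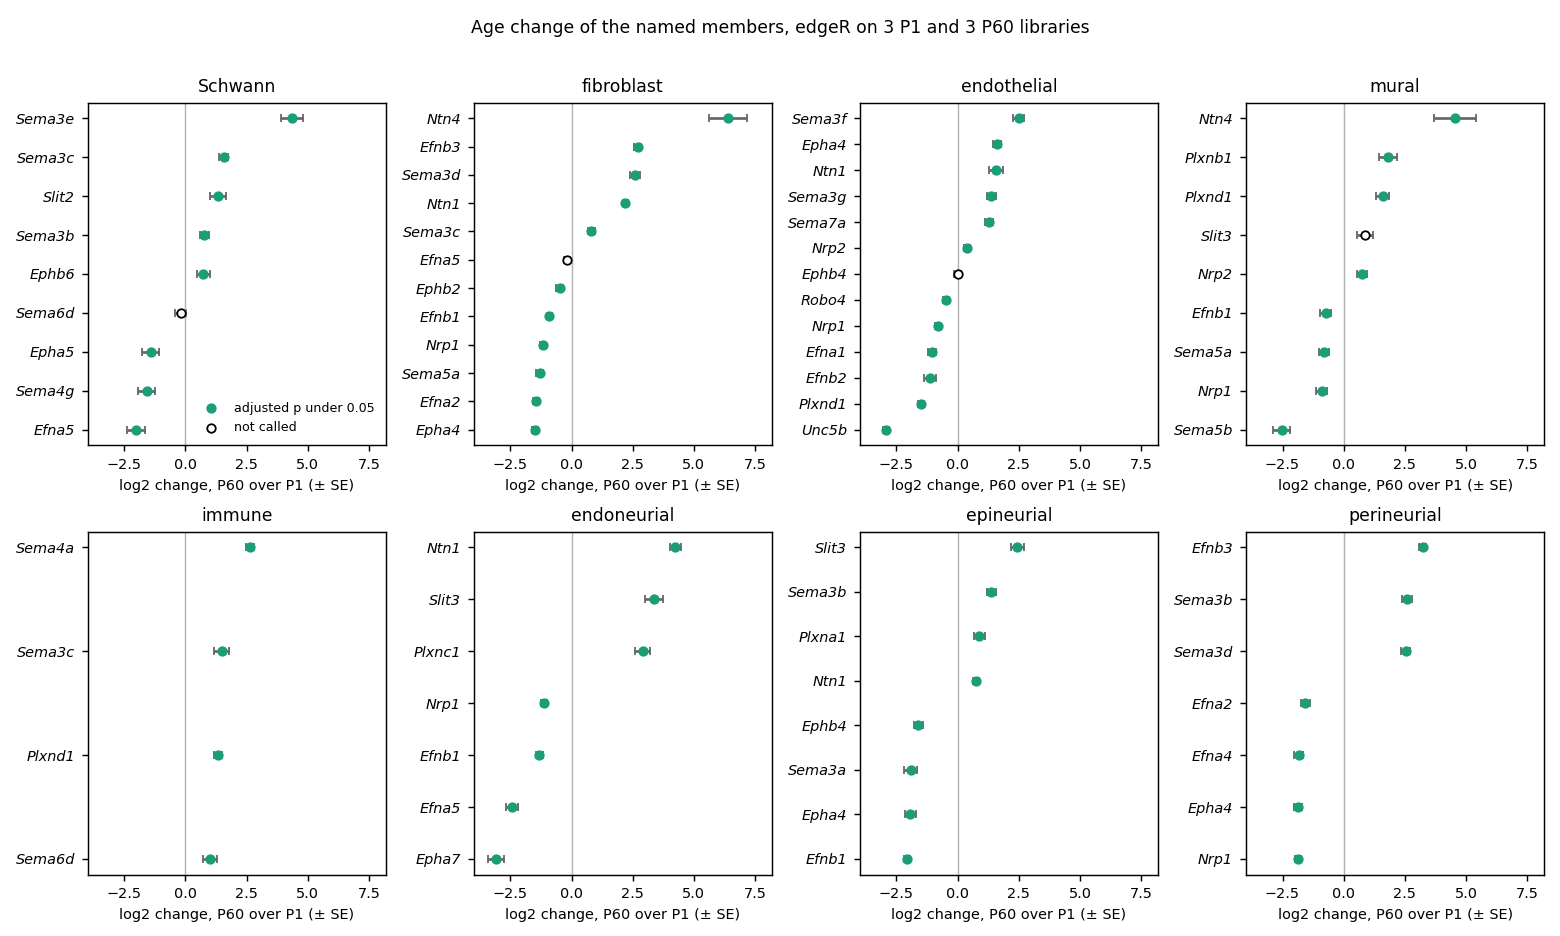
Log2 change from P1 to P60 (x axis, point with SE bar) of the members named in each class or fibroblast subtype, from edgeR on 3 P1 and 3 P60 libraries, with filled points for adjusted p under 0.05 and open points for the rest. Ntn4 in fibroblasts lies farthest to the right, followed by Ntn4 in mural cells and Sema3e in Schwann cells. Ntn4 in endoneurial and perineurial cells is not drawn because P1 held 3 or fewer UMIs there.

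The secreted class 3 semaphorins came from different cells: Schwann cells carried Sema3b, epineurial fibroblasts Sema3c, perineurial cells Sema3d and endothelial cells Sema3g. Sema3b (chr9:107597674-107609229, minus strand, GRCm38) was at 332, 355 and 331 CPM at P1 and 819, 542 and 464 CPM at P60 in Schwann cells. All P60 libraries lay above all P1 libraries, with a log2 change of 0.77 ± 0.18 (SE, adjusted p = 0.00359), which without the first P60 library was 0.40 (adjusted p = 0.0597). It exceeded the mean of the other classes by 4.70 ± 0.059 (SE, adjusted p = 2.42e-29) on the log2 scale at P1 and by 5.17 ± 0.11 (SE, adjusted p = 1.3e-20) at P60. Perineurial cells raised Sema3b from a lower level, from 9.85, 13.8 and 12.5 CPM to 79.7, 75.7 and 57 CPM, with no overlap of the ages and a log2 change of 2.58 ± 0.20 (SE, adjusted p = 3.41e-07). Epineurial cells held 12.6, 16.8 and 17.6 CPM at P1 and 47.3, 44.6 and 36.1 CPM at P60, again with the ages apart (log2 change 1.38 ± 0.18, SE, adjusted p = 0.000112). Endoneurial cells reached means of 22.4 ± 3.73 and 108 ± 34.2 CPM (SD, n = 3).

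Sema3c (chr5:17574281-17730268, plus strand), a ligand that also guides outflow tract and vessel development, was at 126, 139.8 and 141 CPM at P1 and 216, 195 and 293 CPM at P60 in fibroblasts. The P60 libraries were all above the P1 libraries, and the log2 change was 0.80 ± 0.14 (SE, adjusted p = 0.000936). Within fibroblasts it was mainly epineurial, at 381, 412 and 394 CPM at P1 and 328, 330.3 and 495 CPM at P60, where the ages overlapped and the log2 change of -0.11 did not pass the test (adjusted p = 0.578). The rise over all fibroblasts therefore stood beside a rise of epineurial cells from 1272 of 5346 fibroblasts to 4537 of 7852, and the part of this shift in it was not tested. Of the epineurial clusters at P60, cluster 1 (Krtdap, Pi16) held a mean of 626 ± 84 CPM (SD, n = 3) and cluster 0 (Cxcl14, Cilp) 149 ± 42.3 CPM. In Schwann cells Sema3c stood at 36.9, 33.8 and 31.8 CPM at P1 and 67.5, 125 and 115 CPM at P60, higher in all P60 libraries (log2 change 1.57 ± 0.19, SE, adjusted p = 2.69e-05). The fibroblast marker list summed to 6549.7 to 7196.8 CPM in these P1 Schwann cells and to 4665.2 to 8867 CPM at P60, and the epineurial list rose from 46.5 to 56.8 CPM to 1298.9 to 3614.2 CPM. With cells that carried other classes' marker UMIs left out, the log2 change of Sema3c in Schwann cells was 2.68 (adjusted p = 0.000102). Immune cells carried little, 5.16, 8.4 and 11.8 CPM at P1 and 18.4, 17.4 and 31.6 CPM at P60, and the P60 libraries were the higher (log2 change 1.48 ± 0.31, SE, adjusted p = 0.00294). This was 9.57% of the fibroblast level at P60, where fibroblast markers stood at a median of 6.99%, and with the highest doublet scores left out the change was 2.28 (adjusted p = 0.00417). With cells that carried other classes' marker UMIs left out, Sema3c was not called in immune cells.

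Sema3d (chr5:12383385-12588948, plus strand) and Sema3e (chr5:14025276-14256689, plus strand), a ligand of plexin D1, were higher at P60, the former in perineurial and the latter in Schwann cells. Sema3d in perineurial cells was at 43.1, 42.8 and 40.7 CPM at P1 and 204, 202 and 324 CPM at P60, with every P60 library above every P1 library and a log2 change of 2.54 ± 0.18 (SE, adjusted p = 2.22e-07). Over all fibroblasts it was at 19.2, 16.1 and 17.3 CPM at P1 and 78.7, 96.7 and 143 CPM at P60 (log2 change 2.60 ± 0.20, SE, adjusted p = 5.41e-06), while epineurial cells showed means of 19.1 and 24 CPM and no call (adjusted p = 0.377). Sema3e in Schwann cells was near 0 at P1 and detected in all P60 libraries, at 2.28, 1.23 and 1.54 CPM at P1 and 21.5, 25.9 and 55.5 CPM at P60. The third P60 library was the highest, and the log2 change was 4.36 ± 0.44 (SE, adjusted p = 5.23e-06) with it and 3.73 (adjusted p = 1.75e-05) without it. It rests on 45 UMIs at P60, and it was not among the calls when cells that carried other classes' marker UMIs were left out. Epineurial cells held Sema3e as well, at 0.843, 1.09 and 0.994 CPM at P1 and 10.2, 10.7 and 21.8 CPM at P60 (log2 change 3.74 ± 0.48, SE, adjusted p = 0.000116). Endothelial cells raised Sema3g from 27.2, 26.2 and 25.9 to 67.3, 50.3 and 85.7 CPM (log2 change 1.38 ± 0.20, SE, adjusted p = 0.000142). They also raised Sema3f, from 7.22, 5.65 and 6.09 to 31.1, 33.2 and 41.5 CPM (log2 change 2.50 ± 0.22, SE, adjusted p = 3.39e-06), and neither gene overlapped between the ages. Sema3a, the classical repellent of sensory axons, led in epineurial cells at 23.2, 18.2 and 24.9 CPM at P1 and 3.7, 5.96 and 9.01 CPM at P60, lower in all P60 libraries (log2 change -1.92 ± 0.28, SE, adjusted p = 0.000287).

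The regions around the transcription starts of Ntn4 and Sema3d, both ligands that were higher in perineurial cells at P60, are shown because they differ in base content although the genes moved together. RefSeq (GRCm38.p6) gave 300-base windows, 250 bases before to 50 after the start, for 58 of the 67 members. Capitals mark the GC box GGGCGG, searched on both strands, with overlapping matches run together. At least 1 such match is held by 35.7% of all 32851 windows.
Ntn4: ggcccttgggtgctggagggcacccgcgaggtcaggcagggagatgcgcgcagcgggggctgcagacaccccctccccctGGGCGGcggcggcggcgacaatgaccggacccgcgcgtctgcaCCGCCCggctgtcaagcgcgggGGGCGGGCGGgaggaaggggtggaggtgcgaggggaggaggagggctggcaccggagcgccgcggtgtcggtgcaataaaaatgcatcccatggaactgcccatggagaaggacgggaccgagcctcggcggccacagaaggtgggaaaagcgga
Sema3d: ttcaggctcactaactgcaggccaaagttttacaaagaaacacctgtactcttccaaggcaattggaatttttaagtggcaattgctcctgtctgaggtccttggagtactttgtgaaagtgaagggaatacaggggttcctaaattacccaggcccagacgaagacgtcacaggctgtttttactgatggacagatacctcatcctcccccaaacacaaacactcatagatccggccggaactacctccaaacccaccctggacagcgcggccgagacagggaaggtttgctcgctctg
The Ntn4 window lies at chr10:93640799-93641098 on the plus strand, with 31 CpG dinucleotides and 4 GC boxes, and the Sema3d window at chr5:12382916-12383215 on the plus strand, with 8 CpG dinucleotides and 0 boxes. These windows follow the RefSeq starts, which differ from the gene starts of the annotation used for the other coordinates. A match is a run of letters and says nothing about binding.

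**Figure D3:**
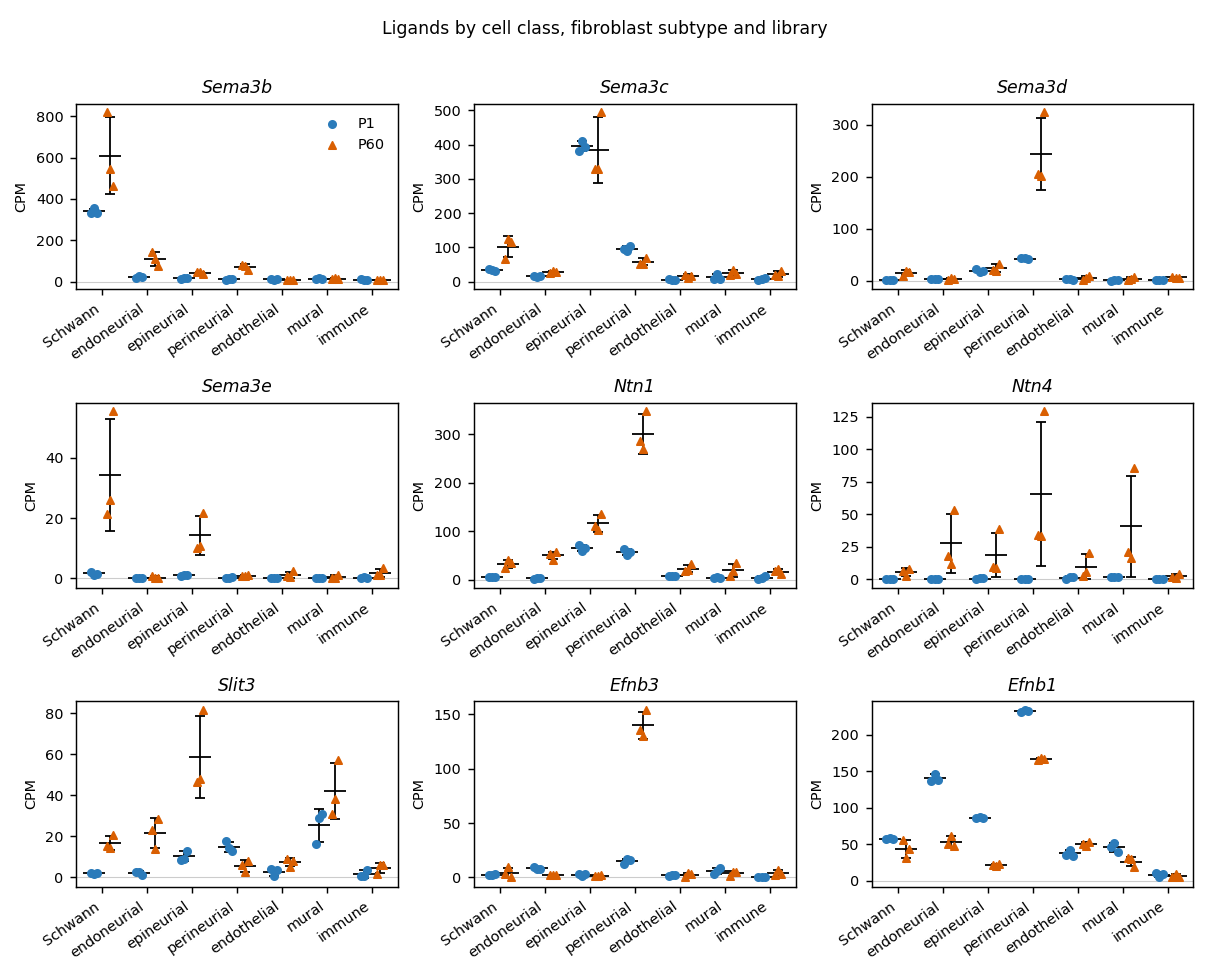
CPM of 9 ligands in each library (circles P1, triangles P60, bars mean ± SD over 3 libraries) in Schwann cells, the 3 fibroblast subtypes, endothelial, mural and immune cells. At P60 Sema3b is highest in Schwann cells, Sema3c in epineurial cells, and Sema3d, Ntn1, Ntn4, Efnb3 and Efnb1 in perineurial cells, and the third P60 library stands out for Ntn4.

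On the receiving side, both neuropilins reached 20 CPM in all 5 classes. Nrp1 was lower at P60 in fibroblasts, endothelial and mural cells, and Nrp2 was higher in Schwann, endoneurial, endothelial, mural and immune cells. Nrp1 (chr8:128358604-128503363, plus strand), the neuropilin that binds Sema3a and VEGF, was at 186, 211 and 194 CPM at P1 and 87.7, 78.9 and 93.7 CPM at P60 in fibroblasts, and no library of P60 reached those of P1 (log2 change -1.17 ± 0.10, SE, adjusted p = 1.09e-05). The steepest fall was perineurial, from 183, 176 and 173 CPM to 45.2, 43.7 and 54.1 CPM (log2 change -1.88 ± 0.12, SE, adjusted p = 9.54e-08), and endoneurial cells fell from 136, 158 and 152 to 63.8, 65.1 and 61.7 CPM (log2 change -1.13 ± 0.13, SE, adjusted p = 9.57e-06). Nrp1 was highest in endothelial cells, at 341, 335 and 343 CPM at P1 and 199, 189 and 178 CPM at P60, and lower in all P60 libraries (log2 change -0.82 ± 0.11, SE, adjusted p = 7.86e-05). That fall did not hold once cells with other classes' marker UMIs were left out, 0.039 (adjusted p = 0.847), while mural markers in endothelial cells summed to 157 to 386 CPM at P1 and 1481 to 2076 CPM at P60. In mural cells Nrp1 fell from 265, 246 and 246 to 154, 163 and 74.6 CPM (log2 change -0.90 ± 0.22, SE, adjusted p = 0.00911). Here the smooth muscle marker sum stood at 7651.3 to 9039.1 CPM at P1 and 16445 to 23357 CPM at P60, highest in the third P60 library. The part of this makeup in the mural fall of Nrp1 was not tested. In immune cells Nrp1 was at 136, 136 and 134 CPM at P1 and 132, 116 and 139 CPM at P60, with overlapping ages (adjusted p = 0.986).

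Nrp2 (chr1:62703285-62818695, plus strand), which binds Sema3c and Sema3f and marks veins and lymphatics, rose most in endoneurial cells, from 71, 65.5 and 68.2 CPM to 215, 241 and 323 CPM. All P60 libraries were above all P1 libraries (log2 change 2.01 ± 0.14, SE, adjusted p = 6.53e-08), in the same cells in which Nrp1 fell. In Schwann cells it was at 126, 126 and 135 CPM at P1 and 159.5, 177 and 292 CPM at P60 (log2 change 0.67 ± 0.18, SE, adjusted p = 0.00947), with the third P60 library the highest and the call lost without it. Endothelial cells held the highest level, 221, 197 and 201 CPM at P1 and 243, 236 and 316 CPM at P60, with the ages apart by a small step (log2 change 0.39 ± 0.13, SE, adjusted p = 0.0328). The call rested on each P1 library, since without the first, the second or the third the values were 0.44 (adjusted p = 0.0593), 0.35 (adjusted p = 0.136) and 0.36 (adjusted p = 0.128). Immune cells rose from 43.1, 44.4 and 51.4 to 72.9, 77.5 and 94.2 CPM (log2 change 0.88 ± 0.15, SE, adjusted p = 0.000714). Mural Nrp2 went from 44.4, 42.4 and 32.9 to 58.2, 74.8 and 55.8 CPM (log2 change 0.75 ± 0.21, SE, adjusted p = 0.0173), a call that was lost without the second P1 library (0.79, adjusted p = 0.0529), without the third (0.60, adjusted p = 0.0946) and without the second P60 library (0.66, adjusted p = 0.0505), and also by DESeq2 (0.76, adjusted p = 0.0564).

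Plxnd1, the gene of plexin D1, fell in endothelial cells and rose in immune and mural cells. Plxnd1 (chr6:115954811-115995005, minus strand) was at 159, 180.4 and 183 CPM at P1 and 54.1, 57.1 and 69.6 CPM at P60 in endothelial cells, where it is known to receive Sema3e in growing vessels. Every P60 library was lower, with a log2 change of -1.50 ± 0.13 (SE, adjusted p = 3.01e-06). Immune cells went the opposite way, from 26.9, 27.6 and 30.3 CPM to 56.9, 69.3 and 80.0 CPM (log2 change 1.35 ± 0.16, SE, adjusted p = 6.98e-05), and so did mural cells, from 13, 15.4 and 17.3 to 36.2, 39.1 and 50.8 CPM (log2 change 1.59 ± 0.27, SE, adjusted p = 0.00139). The difference of the endothelial change from the immune change was -2.81 ± 0.15 on the log2 scale (SE, adjusted p = 7.46e-16). At P60 the ranges of immune (56.9 to 80.0 CPM) and endothelial cells (54.1 to 69.6 CPM) overlapped, so their order at P60 is not set beyond the spread.

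Of the other plexins, Plxnc1, a receptor of Sema7a, rose in endoneurial cells from 3.94, 3.04 and 4.19 CPM to 25.7, 16 and 38.7 CPM (log2 change 2.91 ± 0.31, SE, adjusted p = 4.63e-06). Plxnb1, a receptor of Sema4d, rose in mural cells from 9.75, 8.68 and 4.56 to 18.1, 23.9 and 30.1 CPM (log2 change 1.81 ± 0.37, SE, adjusted p = 0.00388), and Plxna1 in epineurial cells from 11, 13.5 and 15.9 to 22.8, 22.2 and 34.5 CPM (log2 change 0.89 ± 0.22, SE, adjusted p = 0.00682). The ages did not overlap for any of the 3. Plxna2 was an endothelial plexin, with means (± SD, n = 3) of 43 ± 4.59 and 98 ± 22.6 CPM at P1 and P60, above the other classes by 4.79 and 4.73 on the log2 scale. Plxnb3 was a Schwann cell plexin, at 29.9 ± 2.01 and 30.4 ± 8.41 CPM, above the other classes by 3.87 and 5.97, with an age change of -0.016 that was not called. Plxnb2 was broad and led in immune cells, at 54.9 ± 4.79 and 51.3 ± 5.78 CPM.

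**Figure D4:**
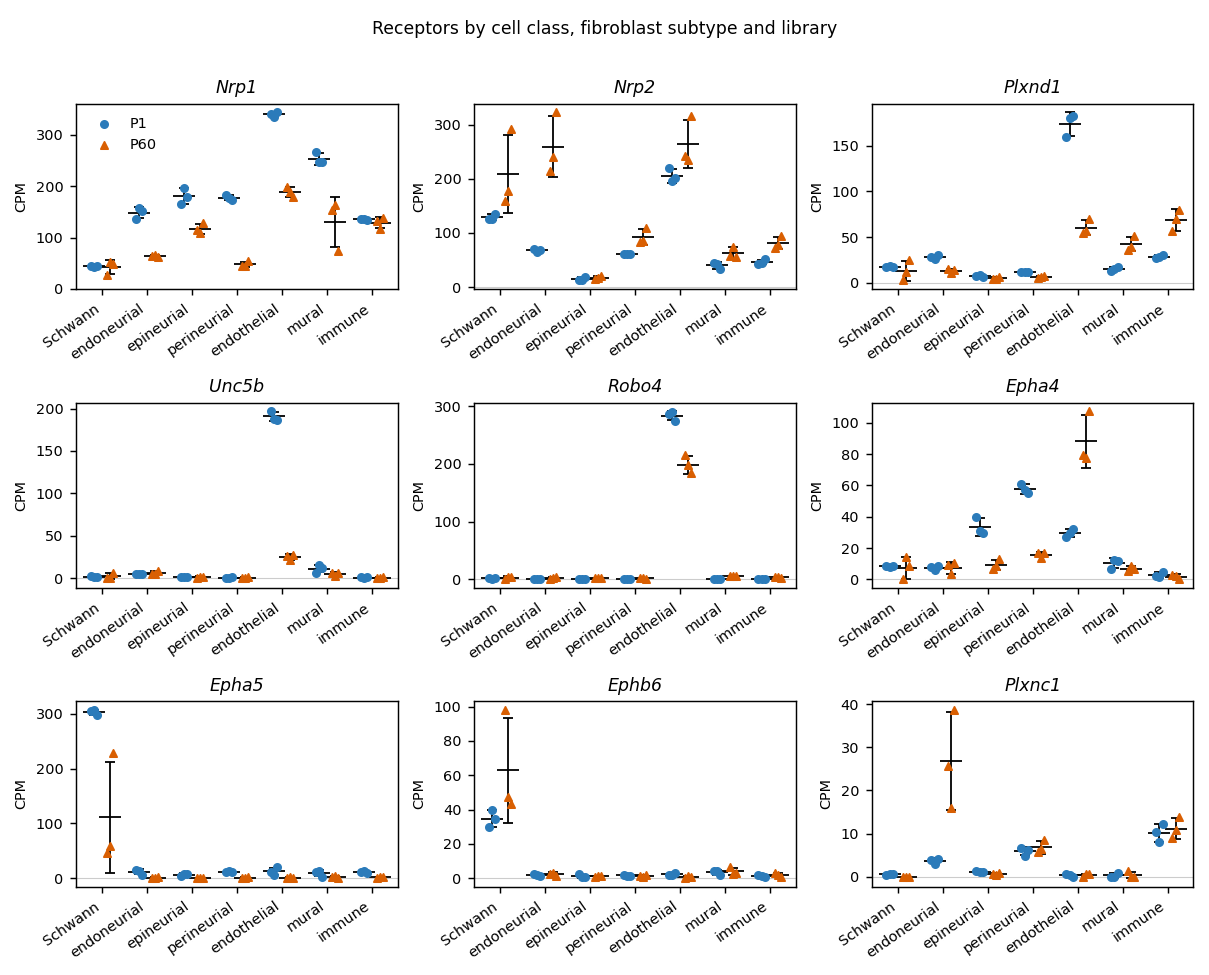
CPM of 9 receptors in each library (circles P1, triangles P60, bars mean ± SD over 3 libraries) in Schwann cells, the 3 fibroblast subtypes, endothelial, mural and immune cells. Nrp1 is lower at P60 in the 3 fibroblast subtypes, Nrp2 higher in endoneurial cells, Unc5b and Plxnd1 lower in endothelial cells, and Epha5 in Schwann cells is spread from 46.0 to 228 CPM among the P60 libraries.

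The membrane-bound and other semaphorins were divided among the classes as well. Sema6d, a class 6 semaphorin, was highest in Schwann cells, at 171, 165 and 176 CPM at P1 and 104, 99 and 245 CPM at P60. The third P60 library was above the P1 libraries and the others below them, so that the change of -0.20 ± 0.24 (SE, adjusted p = 0.542) was not called, while without that library it was -0.85 (adjusted p = 2.16e-05). Sema6d in immune cells went from 15.1, 8.8 and 11.1 to 16.6, 19 and 31.6 CPM (log2 change 1.01 ± 0.28, SE, adjusted p = 0.013), a call that was lost without the second P1 library (0.85, adjusted p = 0.0586) or the third (0.95, adjusted p = 0.0505). Sema4g, also a Schwann cell transcript, fell from 21.5, 24.5 and 24.3 CPM to 9.2, 9.43 and 6.17 CPM with no overlap (log2 change -1.59 ± 0.35, SE, adjusted p = 0.00264), on 10 UMIs at P60.

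Sema4a (chr3:88435959-88461182, minus strand), a semaphorin of antigen-presenting cells, was held by immune cells, at 16.9, 18.0 and 19.96 CPM at P1 and 119, 102 and 107 CPM at P60. The P60 libraries lay far above the P1 libraries, with a log2 change of 2.63 ± 0.15 (SE, adjusted p = 3.74e-07), and the gap to the other classes widened from 3.05 to 5.22 on the log2 scale. Sema4d also led in immune cells, with means of 22.7 and 13.2 CPM that missed the threshold (adjusted p = 0.0514). Endothelial cells carried Sema7a, which is tethered to the membrane by a lipid anchor, at 56.6, 50.4 and 50.2 CPM at P1 and 119.6, 103 and 152 CPM at P60, with all P60 libraries higher (log2 change 1.28 ± 0.16, SE, adjusted p = 4.69e-05).

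Mural cells were the main holders of class 5 semaphorins. Sema5a was at 67.2, 88.7 and 96.7 CPM at P1 and 42.7, 42.3 and 47.6 CPM at P60 in mural cells, lower in all P60 libraries (log2 change -0.81 ± 0.20, SE, adjusted p = 0.0108), although without the third P1 library the change was -0.73 (adjusted p = 0.0565). Over all fibroblasts Sema5a fell from 24, 26.2 and 26.7 to 8.63, 9.28 and 13.2 CPM (log2 change -1.30 ± 0.15, SE, adjusted p = 8.16e-05). In endoneurial cells the ages overlapped, at 29.1, 30.2 and 33.1 CPM at P1 and 17.7, 14.9 and 33.5 CPM at P60. The part of the changed subtype mix in the fibroblast fall was not tested. In mural cells the smooth muscle marker sum was higher at P60, when Sema5a was lower in the smooth muscle cluster than in the pericyte clusters given below. The part of this mix in the mural fall was not tested either. Sema5b in mural cells fell further, from 27.1, 40.5 and 26.5 CPM to 5.17, 6.51 and 3.76 CPM (log2 change -2.53 ± 0.34, SE, adjusted p = 0.000331).

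Ntn1 and Ntn4 rose in all 3 fibroblast subtypes, and perineurial cells held the highest level of either at P60. Ntn1 (chr11:68209364-68400823, minus strand), the prototype netrin, was at 40.5, 38.6 and 40.5 CPM at P1 and 163, 171 and 211 CPM at P60 in fibroblasts, all P60 libraries being above all P1 libraries (log2 change 2.20 ± 0.11, SE, adjusted p = 4.42e-07). Perineurial cells had means of 57.5 ± 5.99 and 301 ± 41.3 CPM (log2 change 2.40 ± 0.14, SE, adjusted p = 2.78e-08). Endoneurial cells started near 0, at 2.46, 3.04 and 2.93 CPM, and reached 53.2, 41.6 and 56.5 CPM (log2 change 4.23 ± 0.22, SE, adjusted p = 4.63e-09). Epineurial cells held 71.7, 59.4 and 65.9 CPM at P1 and 111, 102 and 135 CPM at P60, again without overlap (log2 change 0.75 ± 0.14, SE, adjusted p = 0.00129). In endothelial cells Ntn1 went from 7.77, 8.74 and 7.1 to 17.9, 19.5 and 32 CPM (log2 change 1.58 ± 0.28, SE, adjusted p = 0.000753). Schwann cells showed a mean of 33.2 CPM at P60, which did not exceed the share of fibroblast level seen for fibroblast markers there.

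Ntn4 (chr10:93640681-93747207, plus strand), a netrin of basement membranes that binds laminin, was close to absent at P1 and present in fibroblasts and mural cells at P60. Fibroblasts held 0.456, 0.737 and 0.131 CPM at P1 and 18, 19.6 and 74.9 CPM at P60, a log2 change of 6.40 ± 0.78 (SE, adjusted p = 9.87e-05). Perineurial cells yielded 2 UMIs over the P1 libraries and 1012 over the P60 libraries, which stood at 34.4, 33.4 and 129.6 CPM, a 221.2-fold ratio (95% counting interval 61.07 to 1829). Endoneurial cells yielded 0 UMIs over the P1 libraries and 82 over the P60 libraries, which stood at 17.7, 11.7 and 53.3 CPM, which is at least 115.6-fold higher than a floor of 3 UMIs over the P1 group. The third P60 library was the highest, and without it the fitted log2 change, no bound itself, was 8.58 (adjusted p = 3.03e-08). Mural cells went from 2.17, 1.93 and 1.83 to 20.7, 16.3 and 85.8 CPM (log2 change 4.56 ± 0.86, SE, adjusted p = 0.00232). In each of these cells the third P60 library was the highest by far. Without it the log2 change was 5.47 (adjusted p = 1.38e-09) in fibroblasts, 6.84 (adjusted p = 6.8e-15) in perineurial and 3.18 (adjusted p = 7.19e-05) in mural cells, all still called. Without the second P1 library the fibroblast value was 6.99 (adjusted p = 0.000694), and without the third P1 library the perineurial value was 7.16 (adjusted p = 0.000334). Epineurial cells held 0.421, 0.729 and 0.663 CPM at P1 and 9.2, 8.83 and 38.4 CPM at P60 (log2 change 4.78 ± 0.93, SE, adjusted p = 0.00183). Ntn5 stayed low, with its highest mean of 12.9 CPM in perineurial cells at P60. Intervals cover counting error only.

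Among netrin receptors, Unc5b led in endothelial cells and fell there, and Dcc was near 0. Unc5b (chr10:60762593-60831581, minus strand, overlapped on that strand by Gm19972) was at 197, 188 and 187 CPM at P1 and 25.6, 20.8 and 27.5 CPM at P60 in endothelial cells. No P60 library came near the P1 libraries, and the log2 change of -2.93 ± 0.14 (SE, adjusted p = 2.02e-08) was the steepest fall among the members named in that class. It exceeded the other classes by 6.25 at P1 and 3.80 at P60 on the log2 scale. Unc5c reached 10.4 ± 3.32 CPM in perineurial cells at P60, and Unc5a and Unc5d stayed at or under 1.06 CPM in all classes and subtypes. Dcc was at or below 0.0846 CPM in each class and subtype, and Neo1, which encodes neogenin, had means of 2.76 to 22.5 CPM.

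Slits came from Schwann, mural and epineurial cells, while Robo4, the one Robo gene above 20 CPM, led in endothelial cells. Slit3 (chr11:35121224-35708507, plus strand, host of Mir218-2) led among the 5 classes in mural cells, at 16.2, 28.9 and 31 CPM at P1 and 31, 38 and 57 CPM at P60, where the highest P1 and the lowest P60 library were alike and the change of 0.88 ± 0.33 (SE, adjusted p = 0.0606) was not called. Without the first P60 library it was 1.06 (adjusted p = 0.0272). In epineurial cells Slit3 rose from 8.43, 9.12 and 12.9 CPM to 46.2, 47.7 and 81.6 CPM (log2 change 2.43 ± 0.26, SE, adjusted p = 3.38e-05), and in endoneurial cells from 2.71, 2.79 and 1.26 to 23, 13.9 and 28.2 CPM (log2 change 3.37 ± 0.35, SE, adjusted p = 4.06e-06). Perineurial cells went the other way, from 17.6, 14.3 and 12.8 to 5.84, 2.51 and 8.07 CPM (log2 change -1.50 ± 0.35, SE, adjusted p = 0.00286). Slit2 led in Schwann cells at 9.9, 11.4 and 9.01 CPM at P1 and 24.5, 16.5 and 37 CPM at P60. Its P60 libraries were the higher (log2 change 1.34 ± 0.33, SE, adjusted p = 0.0056), on 33 UMIs, and without the third P60 library the change was 0.89 (adjusted p = 0.116). With cells that carried other classes' marker UMIs left out it was 2.41 (adjusted p = 0.000955). Slit1 stayed under 1 CPM.

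Robo4 (chr9:37401897-37415115, plus strand), the vascular member of the Robo family, was at 287, 289.8 and 274 CPM at P1 and 215, 198 and 184 CPM at P60 in endothelial cells, slightly lower in every P60 library (log2 change -0.48 ± 0.11, SE, adjusted p = 0.00458). It stood above the other classes by 8.21 ± 0.10 (SE, adjusted p = 2.86e-29) at P1 and 5.82 ± 0.12 (SE, adjusted p = 3.53e-21) at P60. The neuronal-type receptors Robo1 and Robo2 were at most 10.3 CPM in any class or subtype. Singled out after their values were seen, they differed in epineurial cells, where Robo1 went from 2.74 ± 1.29 to 6.63 ± 1.7 CPM (log2 change 1.15 ± 0.35, SE, adjusted p = 0.0221) and Robo2 from 83 UMIs to 0, which is at least 82.7-fold lower than at P1 when P60 is set at 3 UMIs. The Robo1 call was lost without the first or the third P1 library and with cells that carried other classes' marker UMIs left out. Robo3 stayed under 1 CPM.

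Among the EphA receptors, Epha5 led in Schwann cells, Epha4 moved in opposite directions in fibroblasts and endothelial cells, and Epha7 fell in endoneurial cells. Epha5 (chr5:84054761-84417382, minus strand) was at 304, 306 and 297 CPM in P1 Schwann cells and exceeded the other classes by 4.70 at P1 and 6.44 at P60 on the log2 scale. At P60 it was at 46, 58.9 and 228 CPM, so the third library lay nearer to P1 than to the other P60 libraries. The log2 change was -1.42 ± 0.35 (SE, adjusted p = 0.00526), -2.60 (adjusted p = 2.92e-11) without the third P60 library and -1.29 (adjusted p = 0.0605) without the second P1 library. With cells that held other classes' marker UMIs left out, which kept 1198 Schwann cells at P1 and 204 at P60, it was 0.62 (adjusted p = 0.201). The third P60 library also had the highest sum of non-myelinating or immature Schwann markers, 3228.6 CPM against 1098.2 and 865.25 CPM, and the lowest sum of myelinating markers, 26756 CPM against 42768 and 32380 CPM, and the part of this makeup in the Epha5 value was not tested.

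Epha4 (chr1:77367185-77515088, minus strand, host of Mir6352), a receptor for A and B ephrins, was at 33.8, 32.3 and 31.4 CPM at P1 and 9.91, 10.5 and 14.2 CPM at P60 in fibroblasts and at 27.2, 29.3 and 32 CPM at P1 and 79.4, 77.4 and 108 CPM at P60 in endothelial cells. All P60 libraries were lower in fibroblasts (log2 change -1.49 ± 0.14, SE, adjusted p = 1.6e-05) and higher in endothelial cells (log2 change 1.60 ± 0.16, SE, adjusted p = 1.1e-05), and the difference of the changes was itself called, at -3.14 ± 0.20 (SE, adjusted p = 1.455e-14). The fall was seen in perineurial cells, from 61.1, 57 and 55 to 16.7, 13.7 and 16.8 CPM (log2 change -1.86 ± 0.15, SE, adjusted p = 5.94e-07), and in epineurial cells, from 40.0, 30.6 and 29.5 to 6.39, 8.61 and 12.8 CPM (log2 change -1.93 ± 0.24, SE, adjusted p = 9.51e-05). Epha7 in endoneurial cells fell from 30.1, 32 and 37.7 CPM to 1.77, 4.27 and 5.23 CPM (log2 change -3.09 ± 0.32, SE, adjusted p = 3.11e-06).

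Of the ephrin-A ligands, Efna1 led in endothelial cells and Efna5 in fibroblasts at both ages. Efna2 led in fibroblasts at P1. At P60 it was under 20 CPM in every class, and Schwann cells led the 5 classes with a mean of 9.64 CPM on 12 UMIs. Endoneurial cells held a mean of 9.93 CPM then, so the order of Schwann cells and fibroblast subtypes is not set. The fibroblast lead of Efna4 overlapped with the next class at either age. Efna1 was at 269, 263 and 213 CPM at P1 and 132, 128 and 93.2 CPM at P60 in endothelial cells, lower in all P60 libraries (log2 change -1.04 ± 0.16, SE, adjusted p = 0.000216). Efna5 in fibroblasts was at 31.7, 32.2 and 34.7 CPM at P1 and 24.5, 30.3 and 31 CPM at P60, where the P60 libraries were lower by little and no change was called (log2 change -0.19 ± 0.11, SE, adjusted p = 0.185), although without the third P60 library the value was -0.22 (adjusted p = 0.0437). In endoneurial cells Efna5 fell from 41.9, 37.8 and 41.7 to 7.09, 9.61 and 4.18 CPM (log2 change -2.44 ± 0.25, SE, adjusted p = 3.8e-06), and in Schwann cells from 24.5, 23.8 and 27 to 3.07, 9.43 and 6.17 CPM (log2 change -2.01 ± 0.37, SE, adjusted p = 0.000851), on 8 UMIs at P60. The Schwann cell call was lost when cells with other classes' marker UMIs were left out (-1.38, adjusted p = 0.177), and the change was -1.21 (adjusted p = 0.00411) with the members kept in the clustering. Efna2 fell in perineurial cells from 30.4, 25 and 28.2 to 11.5, 8.46 and 8.07 CPM (log2 change -1.57 ± 0.19, SE, adjusted p = 2.3e-05). Over all fibroblasts Efna2 was at 20.1, 19.2 and 21.2 CPM at P1 and 8.49, 6.55 and 6.91 CPM at P60 (log2 change -1.45 ± 0.14, SE, adjusted p = 1.9e-05). Efna4 in perineurial cells was at 29.5, 28.1 and 29 CPM at P1 and 7.3, 9.25 and 6.77 CPM at P60, with the ages apart (log2 change -1.85 ± 0.19, SE, adjusted p = 3.94e-06).

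Ephrin-B1 fell in the 3 fibroblast subtypes, while ephrin-B3 rose in perineurial cells and fell in endoneurial cells. Efnb1 (chrX:99136130-99148991, plus strand) was at 149.8, 152 and 147 CPM at P1 and 70.1, 86 and 80.3 CPM at P60 in fibroblasts, without overlap (log2 change -0.91 ± 0.10, SE, adjusted p = 6.69e-05). The fall was steepest in epineurial cells, from 86.4, 87.2 and 85.8 to 21.4, 20.2 and 22.8 CPM (log2 change -2.07 ± 0.12, SE, adjusted p = 3.87e-07), then in endoneurial cells, from 137, 146 and 138 to 50.5, 61.9 and 47.1 CPM (log2 change -1.31 ± 0.14, SE, adjusted p = 5.58e-06). Perineurial cells had the highest level at both ages, 231, 234 and 233 CPM at P1 and 165, 168 and 167 CPM at P60 (log2 change -0.46 ± 0.099, SE, adjusted p = 0.00169). In endothelial cells Efnb1 was at 35.5, 42.7 and 34.5 CPM at P1 and 50.9, 47.9 and 53 CPM at P60, higher in all P60 libraries (log2 change 0.46 ± 0.14, SE, adjusted p = 0.0239), and the fibroblast change minus the endothelial change was -1.42 ± 0.17 (SE, adjusted p = 2.15e-08). The endothelial call was lost by DESeq2 and without the first P1, the third P1 or the first P60 library. Mural Efnb1 went from 46.6, 52.1 and 39.2 to 31, 29.3 and 18.8 CPM (log2 change -0.74 ± 0.24, SE, adjusted p = 0.0329), a call lost without the first P1 library (-0.74, adjusted p = 0.0883), the second (-0.65, adjusted p = 0.126) or the third P60 library (-0.56, adjusted p = 0.0617), and also by DESeq2 (-0.74, adjusted p = 0.122).

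Efnb3 (chr11:69554092-69560205, minus strand) rose in perineurial cells from 12.7, 16.5 and 16.1 CPM to 135, 129.9 and 154 CPM, with every P60 library several times above P1 (log2 change 3.22 ± 0.15, SE, adjusted p = 5.69e-09). Over all fibroblasts it was at 8.67, 7.59 and 8.63 CPM at P1 and 44.4, 56.9 and 61 CPM at P60 (log2 change 2.71 ± 0.14, SE, adjusted p = 4.64e-07), and in endoneurial cells it went from 9.61, 7.61 and 7.74 CPM to 2.66, 2.14 and 2.09 CPM (log2 change -1.73 ± 0.42, SE, adjusted p = 0.00436). The endoneurial call was lost when any 1 of the P1 libraries was left out. In epineurial cells no change was called (log2 change -0.79 ± 0.49, SE, adjusted p = 0.221), and the epineurial clusters at P60 held 1.93 and 1.31 CPM. Efnb2, the arterial ephrin, was at 67.7, 60.6 and 78.1 CPM at P1 and 19.8, 27.1 and 46.4 CPM at P60 in endothelial cells and lower in all P60 libraries (log2 change -1.12 ± 0.24, SE, adjusted p = 0.00303).

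Its venous partner Ephb4 stood at 91.6, 67.3 and 80.1 CPM at P1 and 76.5, 68.7 and 89.6 CPM at P60 in endothelial cells, with overlapping ages and no call (log2 change 0.0011 ± 0.15, SE, adjusted p = 0.996). In epineurial cells Ephb4 fell from 30.8, 25.5 and 26.5 to 8.97, 7.73 and 11.9 CPM (log2 change -1.61 ± 0.19, SE, adjusted p = 6.3e-05). Ephb2, the receptor named above for injured nerve, led in fibroblasts as a whole, at 30.3, 26.9 and 32 CPM at P1 and 18.6, 19.1 and 25.9 CPM at P60, against means of 13.5 and 11 CPM in Schwann cells. Endoneurial cells had lower means than Schwann cells, at 11.4 CPM at P1 and 2.06 CPM at P60. All P60 libraries were lower in fibroblasts (log2 change -0.48 ± 0.14, SE, adjusted p = 0.0137), and the call was lost without the third P1 library (-0.45, adjusted p = 0.0515) or the second P60 library (-0.42, adjusted p = 0.0521). Ephb6, which lacks kinase activity, was a Schwann cell receptor, at 29.7, 39.4 and 34.6 CPM at P1 and 98.2, 47.2 and 43.2 CPM at P60. The first P60 library was well above the others, and the change of 0.72 ± 0.26 (SE, adjusted p = 0.0433) was 0.20 (adjusted p = 0.584) without it and 0.75 (adjusted p = 0.0896) without the second. The call was also lost by DESeq2. It stood above the other classes by 4.08 at P1 and 5.14 at P60 on the log2 scale.

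Schwann cells at P1 fell into clusters that differed in these genes, and the values are given as descriptions because the clusters were made from the same cells. Cluster 2, with 4 of 5 non-myelinating or immature markers, held Epha5 at a mean of 692 ± 33.3 CPM (SD, n = 3) and Nrp2 at 209 ± 12.5 CPM. The cycling cluster 13 (4 of 4 cell cycle markers) was alike, with Epha5 at 478 and Nrp2 at 242 CPM. In the myelinating clusters 3 and 10 (6 of 6 markers each), Epha5 was at 112 and 34.1 CPM and Nrp2 at 67.4 and 48.8 CPM. Epha5 and Nrp2, together with Sema3c at 58.1 CPM in cluster 2 and 4.3 CPM in cluster 10, thus stood on the immature side. Sema3b, Sema6c, Sema6d and Ephb6 stood on the other, with Sema6c at 1.74 CPM in cluster 2 and 88.7 CPM in cluster 10. Ephb6 was at 12 and 70.3 CPM in those clusters, Sema6d at 94.7 and 263 CPM, and Sema3b at 279 and 481 CPM. Cluster 11 had a median of 24.7% mitochondrial counts and few UMIs per cell, and it carried fibroblast ligands too, such as Sema3c at 88 CPM. The P60 Schwann cells formed 1 cluster, which mixed myelinating (6 of 6) and non-myelinating (5 of 5) markers.

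**Figure D5:**
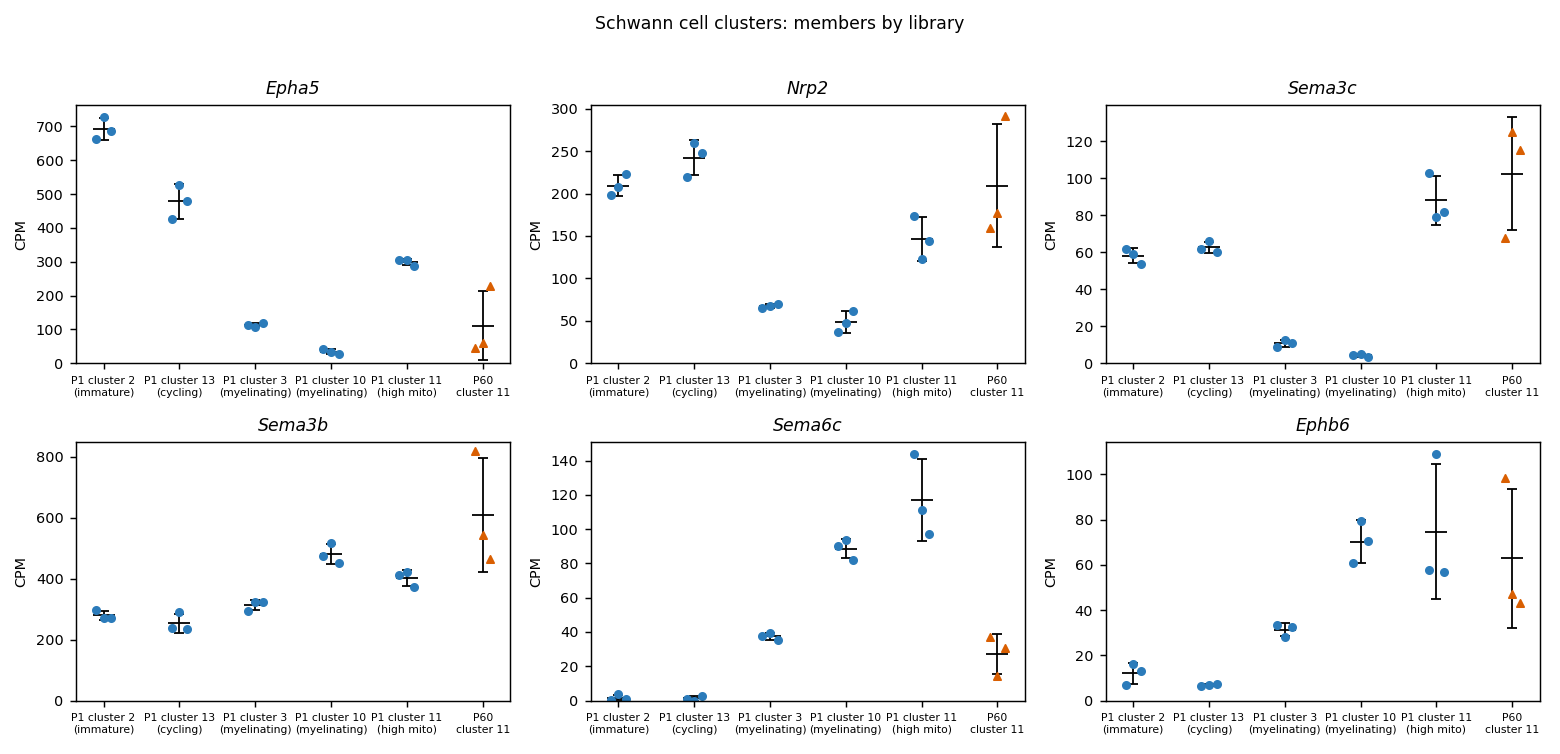
CPM of 6 members per library (points) with mean ± SD bars in the 5 Schwann clusters at P1 and the single one at P60. Epha5, Nrp2 and Sema3c are high in the immature and cycling clusters 2 and 13, and Sema6c and Ephb6 in the myelinating clusters 3 and 10.

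The vessel clusters of P60 differed in some members, again given as descriptions. The arterial cluster 6.4 (5 of 5 arterial markers, 85 cells) had Sema3g at 262 CPM and Efnb2 at 90.7 CPM. The venous cluster 6.0 (3 of 4 venous markers, 262 cells) had Sema3g at 2.62 CPM, Efnb2 at 17.5 CPM, Ephb4 at 125 CPM and Nrp2 at 584 CPM. Between these clusters, Sema3g and Efnb2 were thus higher in the arterial one, while Nrp2 and Ephb4 are given for the venous one only. A cluster of 117 cells with 5 of 5 lymphatic and 6 of 9 endothelial markers, left outside the 5 classes, combined Nrp2 at 483 CPM with Nrp1 at 5.99 CPM. It also carried Sema3d at 153, Ntn1 at 224, Unc5b at 103 and Sema3a at 63.7 CPM, so that these genes were also found outside the 5 classes. Among mural clusters at P60, smooth muscle cluster 7 held Nrp1 at 20.4 and Sema5a at 24.2 CPM, and pericyte clusters 8.0 and 8.2 held Nrp1 at 338 and 358 CPM and Sema5a at 90.2 and 87.4 CPM. Immune cluster 4 (Pf4, C1qa) had Sema4a at 139, Nrp1 at 192 and Plxnd1 at 54.4 CPM, while cluster 10 (Ccr2, Cd209a) had them at 65.3, 35 and 91.2 CPM. Cluster 4 thus held more Sema4a and Nrp1, and cluster 10 more Plxnd1.

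A list of 52 co-receptors, further ligands and intracellular mediators of the same pathways gave the surroundings of the members. In Schwann cells 25 of 41 tested were called (18 higher, 7 lower; all genes 40.5%), in fibroblasts 32 of 47 (20 and 12; all genes 59.9%) and in endothelial cells 18 of 31 (8 and 10; all genes 40.3%). In mural cells 10 of 25 were called (6 and 4; all genes 33.2%), and in immune cells 17 of 30 (16 and 1; all genes 37.5%). Flrt2, a ligand of Unc5 receptors, rose in perineurial cells from 45.4 ± 3.14 to 428 ± 49.2 CPM (log2 change 3.25 ± 0.13, SE, adjusted p = 1.2e-09). Ntng1, a netrin-related protein held by a lipid anchor, rose there from 137 ± 15.1 to 842 ± 280.4 CPM (log2 change 2.63 ± 0.20, SE, adjusted p = 3.05e-07) and fell in endoneurial cells from 63.6 ± 1.18 to 6.76 ± 2.06 CPM (log2 change -3.16 ± 0.22, SE, adjusted p = 7.42e-08). Unlike the members it was not left out of the clustering, and it was among the leading genes of a perineurial cluster. In Schwann cells the adhesion molecules L1cam, which is also in the non-myelinating marker list, and Chl1 rose by 2.00 ± 0.30 (SE, adjusted p = 0.00014) and 2.54 ± 0.21 (SE, adjusted p = 9.05e-07). Srgap1, a mediator of Slit and Robo signalling, was at 119.7 ± 8.67 and 34.6 ± 20.1 CPM there (log2 change -1.75 ± 0.25, SE, adjusted p = 0.000124).

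The remaining members, and a few of those above, are given by their ranges. Sema4b, Sema4c, Sema6a, Sema6b and Sema6c reached 20 CPM with leading means between 21.8 and 92.5 CPM, the first in mural cells, Sema4c and Sema6c in Schwann cells and Sema6a and Sema6b in endothelial cells. Ephb3, Epha2, Epha3, Epha1, Ephb1, Plxna3, Plxna4 and Sema4f had leading means of 4.75 to 19.6 CPM over the 5 classes. Under 1 CPM in every class and subtype at both ages were Epha6, Epha8, Epha10, Robo3, Slit1 and Unc5d, and Efna3 passed 1 CPM in perineurial cells only. All 67 members were found by gene identifier in the GRCm38 annotation. There 22 share sequence with another gene on the same strand, so a part of their counts may belong to that gene.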

How the data were processed

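Sciatic nerve cells of 3 P1 and 3 P60 libraries were sequenced with 10x 3' v2 chemistry, and the counts deposited by the authors are raw UMI counts per gene and cell from Cell Ranger 2.0.2, with GRCm38.p5 in the submitters' processing notes. Cells with 500 to 5000 genes were kept. Clustering used Seurat 5.3.0 in R 4.3.3 (Matrix 1.6.5) per age, with 10 components and without the members, and classes were named from fixed marker lists. Counts were summed per library and class and tested with edgeR 4.0.16 (quasi-likelihood, TMM scaling, filterByExpr, two-sided, Benjamini-Hochberg over all genes tested, threshold 0.05), and DESeq2 1.42.0 was an alternative. Doublets were kept and left out in an alternative. Sequences came from RefSeq and positions from the GRCm38 annotation. Values per library were given for up to 4 members per direction and class with the largest called changes at 20 CPM or more, and for the highest members of each family. Members and lists were chosen with earlier results of these data known. The steps were tested on simulated data, and 0 columns belonged to no sample.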

Additional observations from a re-analysis of the deposited data

Results flagged for a closer look

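Members that were called in opposite directions with age in 2 cell classes, and whose changes differed by a test of the difference itself, are given here with that difference in log2 units (edgeR class-by-age contrast, Benjamini-Hochberg adjusted over all genes in each contrast), for members at 20 CPM or more in both classes. The change of Epha4 in fibroblasts minus that in endothelial cells was -3.1442 (SE 0.1982, adjusted p = 1.455e-14). For Efnb1 the change in fibroblasts minus that in endothelial cells was -1.4237 (SE 0.1652, adjusted p = 2.147e-08), and that in endothelial minus that in mural cells was 1.2587 (SE 0.263, adjusted p = 0.0006586). The Plxnd1 change in endothelial cells was lower than in mural cells by a difference of -3.0434 (SE 0.2188, adjusted p = 2.036e-12) and than in immune cells by -2.8061 (SE 0.1484, adjusted p = 7.459e-16). The endothelial call of Efnb1 was lost by DESeq2 and without the first P1, the third P1 or the first P60 library. Its mural call was lost by DESeq2 and without the first P1, the second P1 or the third P60 library. For each pair of classes the 3 libraries of an age lay on 1 side of the other age in both classes. Mural marker sums in endothelial cells were 157 to 386 CPM at P1 and 1481 to 2076 CPM at P60, and their part in these differences was not tested. At lower levels, Sema4a in fibroblasts (mean of 5.32 CPM at its higher age) minus immune cells differed by -3.43 (SE 0.2232, adjusted p = 3.767e-14), and Plxnd1 in fibroblasts (16.7 CPM) by -2.81 against immune (SE 0.1589, adjusted p = 1.114e-15) and -3.05 against mural cells (SE 0.2269, adjusted p = 2.595e-12). Robo4 in fibroblasts (1.83 CPM) minus endothelial cells differed by 1.91 (SE 0.2914, adjusted p = 3.639e-06), at a level no higher than the endothelial markers' share there.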

How the results depend on the processing

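Counts of called members kept within 1.5 times the reported count under the alternatives run, with these exceptions. With cells holding other classes' marker UMIs left out, 6 members were called in Schwann cells and 7 in mural cells, of fewer members tested (22 and 14). With genes of at least 1 count tested, 21 were called in mural and 19 in immune cells, of more members tested (62 and 63). Leaving out 1 library at a time gave 36 to 47 calls in fibroblasts, 10 to 16 in Schwann cells, 11 to 15 in mural, 20 to 22 in endothelial, 9 to 12 in immune, 21 to 27 in endoneurial, 25 to 31 in epineurial and 25 to 30 in perineurial cells. It gave 30 to 35 members with a class-by-age difference, 85 to 89 pairs of member and class at P1 and 74 to 76 at P60. Of 71 named gene and class values, 67 were called and 55 of these in every alternative that could be run. The sign turned for Epha5 in Schwann cells (0.62) and Nrp1 in endothelial cells (0.039) with marker-carrying cells left out. The cause was not tested. It also turned for Ephb4 in endothelial cells, a change near 0 that was never called, at -0.02576 with library size alone, -0.004697 with members kept in the clustering, -0.008813 with a total of 100000, -0.004453 with another seed, -0.008143 with at most 10% mitochondrial counts, -0.004586 without high doublet scores, and -0.1114 to 0.1158 when 1 library was left out (-0.1114 without the second P1, -0.003688 without the third P1 and -0.09359 without the third P60 library).

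Libraries of the same replicate number correlated at -0.0922 to 0.198 and not above 0.1 throughout any class. For replicates 2 and 3 the values exceeded every pair of different numbers in Schwann cells, fibroblasts and the fibroblast subtypes. In fibroblasts they were 0.198 and 0.196, against at most 0.153 between different numbers. They did not exceed those pairs in endothelial, mural or immune cells, and replicate 1 did so in no class. Whether libraries of the same number share a batch was not tested. The numbers are those of the labels, and the study's own cell list numbers a P60 library differently. With that number as a block, 43 members were called in fibroblasts, 14 in Schwann cells, 13 in mural, 21 in endothelial, 11 in immune, 26 in endoneurial, 27 in epineurial and 27 in perineurial cells. The block ended the call of Ephb6 in Schwann cells (0.74, adjusted p = 0.0538) and gave one for Slit3 in mural cells (0.84, adjusted p = 0.0233). Without the library block 92 pairs of member and class were called at P1 and 73 at P60. The Schwann cells of P60 held 325994 to 486583 UMIs per library, so members with few UMIs there could not be resolved.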

Other observations

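Several members below the level used for naming moved within fibroblast subtypes and were singled out after their values were seen. Unc5c, a netrin receptor, went from 83 UMIs at P1 to 1 at P60 in endoneurial cells (8.13, 6.34 and 5.23 CPM against 0, 0 and 1.05 CPM) and from 9 to 169 UMIs in perineurial cells (0.41, 1.78 and 1.47 CPM against 8.55, 8.32 and 14.2 CPM, log2 change 3.06 ± 0.44, SE, adjusted p = 7.33e-05). In both subtypes the ages did not overlap, and the endoneurial call was lost when any 1 of the P1 libraries was left out. Ntn5 was raised in perineurial cells too, at 0, 0.891 and 1.1 CPM at P1 and 13.3, 12.4 and 12.9 CPM at P60 (log2 change 4.21 ± 0.43, SE, adjusted p = 4.58e-06). Perineurial cells thus had higher levels of Ntn1, Ntn4, Ntn5 and Unc5c at P60.

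Epha5 was low outside Schwann cells. In fibroblasts it was at 11, 11.6 and 8.83 CPM at P1 and 0.472, 0.683 and 1.01 CPM at P60 (log2 change -3.86 ± 0.25, SE, adjusted p = 1.62e-06), in libraries whose Schwann cells numbered 3522 in all at P1 and 419 at P60. The part of carried-over Schwann cell RNA in this fall was not tested. In mural cells Sema3f went from 1.08, 3.86 and 2.74 CPM to 11.6, 13 and 27.6 CPM (log2 change 2.92 ± 0.57, SE, adjusted p = 0.00281), the third P60 library being the highest. This call was lost with at most 10% mitochondrial counts per cell and with cells that carried other classes' marker UMIs left out.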
